A study of Mus musculus with 5 samples.

Results

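The levels of 10 macrophage marker genes were followed in heart RNA of mice after bone marrow transplantation. The genes were chosen by symbol, and all 10 were found among the 17818 gene symbols measured. Of these, 5 mark macrophages resident in the tissue (Lyve1, Folr2, Cd163, Mrc1 and Timd4), 1 marks cells recruited from blood monocytes (Ccr2) and 4 mark macrophages in general (Aif1, Csf1r, Adgre1 and Cd68). The study asked what oridonin, a plant diterpenoid, does to hearts under clonal hematopoiesis, in which a mutant clone takes over part of the blood. Tet2, often mutated in such clones, acts in the removal of DNA methylation. There were 2 libraries of the group Tet2 oridonin (genotype Tet2+/-, given oridonin), 2 of Tet2 vector (genotype Tet2+/-, given vector) and 1 of WT vector (wild type, given vector). All 5 came from male mice after bone marrow transplantation. Hearts were taken 12 months after the transplant, and treatment lasted 2 months. The sample titles carry 1 month for the first and 2 month for the second library of each Tet2 group, which is used here as the replicate number. The title of the WT library carries 1 month. If this number is a time, the replicates differ in it. The WT library would then match only replicate 1 of each Tet2 group, and group and time could not be told apart fully in comparisons with WT. The labels give neither the age nor the strain of the mice. They do not say whether a genotype is that of the marrow donor or of the recipient, how much of the recipient's own blood and heart macrophages remained, or what the vector is.

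The mouse heart holds macrophages of more than 1 origin. Some were seeded before birth, renew themselves in the tissue, clear debris and dying cells, and carry TIMD4, LYVE1 and FOLR2. Others arise from blood monocytes, which enter through the chemokine receptor CCR2 and are replaced from the bone marrow. After a transplant, marrow-derived cells carry the donor's genotype, while resident macrophages of the heart are replaced more slowly.

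Each library held 14574823 to 15535778 counts. Levels are given as CPM, counts scaled to the same library total, where 3 counts correspond to 0.193 to 0.206 CPM. The deposited log2 values of each Tet2 library contained 0.25 of the value of the other replicate of its group, and this mix was undone before any value below was computed. The WT column has no replicate and is itself such a mix, with a set of counts that could not be separated. It is used as deposited, so the WT value is a blend of 2 sets of counts, its counts need not be whole and its counting intervals are approximate. The library of Tet2 vector replicate 1 stood apart: the atrial marker Myl7 had 2739 counts in it and at most 1 in the other 4. The members' medians without it are therefore given in each comparison. Tet2 itself was at 9.43 and 17.9 CPM in Tet2 oridonin, 19.2 and 7.76 CPM in Tet2 vector and 15.6 CPM in WT vector, so its level in whole heart did not set the genotypes apart. Genes of the mitochondrial genome took 23.6% to 30.2% of the counts. The heart muscle genes listed as markers summed to 32800 and 38800 CPM in Tet2 oridonin, 34700 and 25800 CPM in Tet2 vector and 36900 CPM in WT vector. In RNA of whole tissue, fewer cells of a type and less RNA per cell cannot be told apart. Nothing in the labels ties the replicates to separate animals, so a p-value here reflects no more than how these samples scatter, which may be technical.

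The resident markers varied more between the libraries of the Tet2 vector group than between groups. Lyve1, a receptor for hyaluronan (chromosome 7, 110850607 to 110863239, GRCm38, minus strand), was at 17.3 and 20.4 CPM in Tet2 oridonin hearts, 42.1 and 10.7 CPM in Tet2 vector hearts and 18.0 CPM in the WT heart. The Tet2 vector libraries thus held both its highest and its lowest level. Mrc1, the mannose receptor CD206 (chromosome 2, 14229392 to 14332057, plus strand), was at 31.7 and 41.6 CPM in Tet2 oridonin, 60.8 and 24.7 CPM in Tet2 vector and 26.0 CPM in WT vector. Folr2, folate receptor beta (chromosome 7, 101839988 to 101857194, minus strand), was at 2.39 and 2.81 CPM in Tet2 oridonin, 4.70 and 1.70 CPM in Tet2 vector and 1.83 CPM in WT vector. For both genes the highest and the lowest library were again those of Tet2 vector, on either side of the WT library and of both oridonin libraries.

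Cd163, a scavenger receptor for complexes of haemoglobin and haptoglobin (chromosome 6, 124304656 to 124330527, plus strand), was the resident marker whose highest level was in the WT heart. It was at 14.7 and 15.7 CPM in Tet2 oridonin, 23.0 and 4.96 CPM in Tet2 vector and 26.6 CPM in WT vector. All 4 Tet2 libraries lay below the WT library, 1 of them only slightly. Timd4, a receptor for phosphatidylserine on dying cells (chromosome 11, 46810800 to 46844332, plus strand), had the lowest mean CPM of the 10, with 28 and 12 counts in Tet2 oridonin, 51 and 7 in Tet2 vector and 4 in WT vector. These correspond to 1.91 and 0.823 CPM, 3.28 and 0.456 CPM, and 0.267 CPM. The exact Poisson 95% interval was 0.0726 to 0.683 CPM in the WT library and 0.184 to 0.941 CPM in Tet2 vector replicate 2. These intervals cover counting error only, and they overlapped. The interval of Tet2 vector replicate 1, 2.44 to 4.32 CPM, overlapped neither.

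Ccr2 (chromosome 9, 124101950 to 124113557, plus strand), the receptor that draws monocytes into tissue, followed another pattern. It was at 5.47 and 7.68 CPM in Tet2 oridonin, 4.25 and 4.50 CPM in Tet2 vector and 1.53 CPM in WT vector. The groups did not overlap, and the order ran from oridonin down to WT. Of all genes tested, 35.4% had both vector libraries above the WT library. Both oridonin libraries lay above both vector libraries in 8.37%. The share of genes with the full order was not computed. The Poisson 95% interval of oridonin replicate 1 (4.34 to 6.81 CPM) overlapped those of both Tet2 vector libraries (3.29 to 5.40 and 3.50 to 5.69 CPM). That of oridonin replicate 2 (6.33 to 9.25 CPM) overlapped neither. The WT library's interval (0.972 to 2.30 CPM) overlapped none of the other 4. These intervals cover counting error only, and replicates scattered more than that. Measured against counting error, the mean chi-square per gene between replicates was 11.53 in Tet2 vector and 6.532 in Tet2 oridonin. It was taken over 1999 and 2083 genes picked by their counts.

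The general markers did not move as 1 group. Aif1, which encodes the actin-bundling protein IBA1 (chromosome 17, 35170991 to 35176068, minus strand), was at 2.32 and 2.54 CPM in Tet2 oridonin, 2.70 and 3.13 CPM in Tet2 vector and 0.583 CPM in WT vector. Its 4 Tet2 libraries lay close together and well above the WT library, whose Poisson 95% interval was 0.263 to 1.12 CPM. Cd68, a glycoprotein of lysosomes (chromosome 11, 69664213 to 69666153, minus strand), was at 10.5 and 11.1 CPM in Tet2 oridonin, 18.0 and 11.0 CPM in Tet2 vector and 6.33 CPM in WT vector, so that the WT library was again the lowest. Adgre1, the adhesion receptor F4/80 (chromosome 17, 57358691 to 57483527, plus strand), was at 13.5 and 11.7 CPM in Tet2 oridonin, 20.2 and 12.1 CPM in Tet2 vector and 10.8 CPM in WT vector. Apart from Tet2 vector replicate 1, its libraries lay close together.

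Csf1r, the receptor through which CSF1 and IL34 keep macrophages alive (chromosome 18, 61100598 to 61132149, plus strand), showed no such step. It was at 38.8 and 33.2 CPM in Tet2 oridonin, 56.6 and 36.6 CPM in Tet2 vector and 46.7 CPM in WT vector, which lay between the vector libraries and above both oridonin libraries. Csf1r overlaps Hmgxb3 on the opposite strand, a gene at 12.5 to 19.9 CPM, and the labels do not say whether reads keep their strand. Part of its counts could thus be reads of that gene. On a scale per length of exon, Csf1r was the highest of the 10 members in the WT heart at 8.09 CPM per kb, ahead of Lyve1 at 6.18, Cd68 at 5.04 and Cd163 at 4.87 CPM per kb. Cd68 was the highest in both oridonin libraries, at 8.32 and 8.84 CPM per kb, and in Tet2 vector replicate 2 at 8.72 CPM per kb. In Tet2 vector replicate 1, Lyve1 at 14.4 and Cd68 at 14.3 CPM per kb stood side by side. Ccr2, at 0.227 to 1.14 CPM per kb, and Timd4, at 0.123 to 1.51 CPM per kb, were the 2 lowest in every library.

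**Figure D1:**
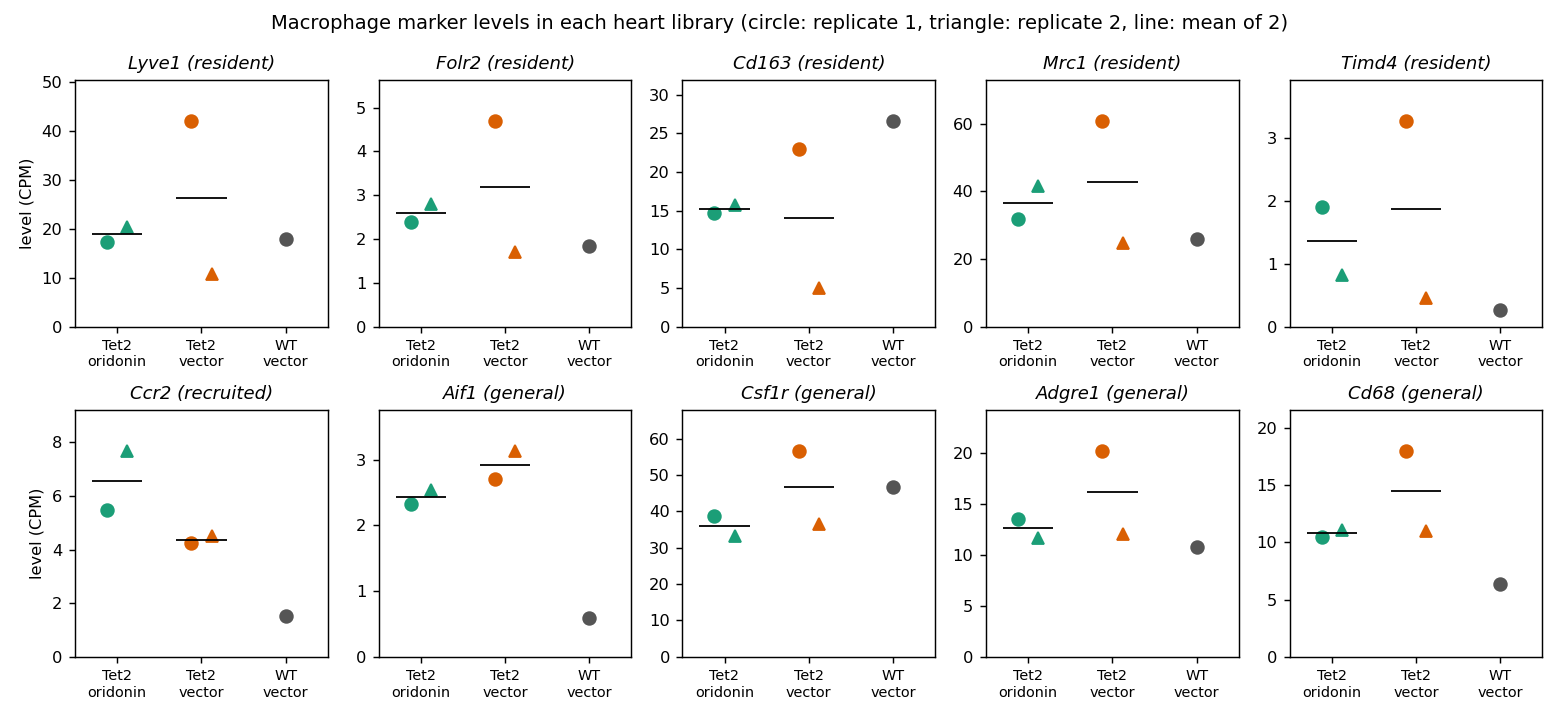
Level of each of the 10 macrophage markers (y axis, CPM, from 0) in Tet2 oridonin, Tet2 vector and WT vector hearts, with a circle for replicate 1, a triangle for replicate 2 and a line at the mean of the 2. The groups do not overlap in Ccr2 (5.47 and 7.68, 4.25 and 4.50, and 1.53 CPM), and the share of all genes with this order was not computed. In Lyve1 (17.3 and 20.4, 42.1 and 10.7, and 18.0 CPM) the vector libraries lie on either side of the others.

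The sequences just before the transcription start set by RefSeq are shown for 4 members. Mrc1 stands for a resident marker whose level followed single libraries. Cd68, Aif1 and Ccr2 are the members with the smallest p-values against WT below. RefSeq (GRCm38.p6) gave such sequences for 7 of the 10 members, and the 250 bases before the start are printed, 5′ to 3′ on the gene's strand. They lie at chr2:14229164-14229413 (plus strand) for Mrc1, chr11:69666171-69666420 (minus strand) for Cd68, chr17:35176053-35176302 (minus strand) for Aif1 and chr9:124101933-124102182 (plus strand) for Ccr2. The gene spans given above come from another annotation, GENCODE, with other starts. By those spans most of the Ccr2 window lies inside the gene, as do the last bases of the Mrc1 and Aif1 windows. Capitals mark GAGGAA, the core of the motif bound by PU.1, a transcription factor of myeloid cells, or its reverse complement TTCCTC.
Mrc1: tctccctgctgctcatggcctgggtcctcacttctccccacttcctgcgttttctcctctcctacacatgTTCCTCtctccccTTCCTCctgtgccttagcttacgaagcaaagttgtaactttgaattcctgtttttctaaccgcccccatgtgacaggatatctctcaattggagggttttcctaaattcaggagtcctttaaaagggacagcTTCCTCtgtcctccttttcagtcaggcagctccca
Cd68: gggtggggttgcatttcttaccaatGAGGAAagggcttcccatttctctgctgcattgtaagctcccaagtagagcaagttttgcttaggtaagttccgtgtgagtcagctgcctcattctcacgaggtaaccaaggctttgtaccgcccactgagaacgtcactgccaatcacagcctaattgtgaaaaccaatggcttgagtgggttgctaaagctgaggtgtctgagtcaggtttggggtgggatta
Aif1: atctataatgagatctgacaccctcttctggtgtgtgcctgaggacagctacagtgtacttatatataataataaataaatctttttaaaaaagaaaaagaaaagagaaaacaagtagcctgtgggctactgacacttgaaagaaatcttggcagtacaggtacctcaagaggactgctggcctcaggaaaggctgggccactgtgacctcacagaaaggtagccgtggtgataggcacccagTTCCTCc
Ccr2: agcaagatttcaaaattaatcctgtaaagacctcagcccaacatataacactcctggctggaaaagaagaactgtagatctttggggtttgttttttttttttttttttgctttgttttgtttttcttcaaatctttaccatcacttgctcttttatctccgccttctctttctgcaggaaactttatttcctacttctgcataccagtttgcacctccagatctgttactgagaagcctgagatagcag
Mrc1 held 3 matches, at 180, 167 and 35 bases before the start, all on the opposite strand. Aif1 held 1, at 7 bases before the start on the opposite strand, and Cd68 held 1, at 225 bases on the gene's own strand. Ccr2 held none, nor did the windows of the other 3 members with a sequence, Folr2, Cd163 and Timd4. Of 32851 promoter windows of the same length, 23.3% held at least 1 match on either strand. The letters TATAAA, the TATA box, were in none of the members' windows, against 12.4% of all. A match is a description of the letters only.

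Within the Tet2 vector group, the resident markers separated the 2 libraries and Ccr2 and Aif1 did not. Replicate 1 over replicate 2 was 3.94 for Lyve1, 2.77 for Folr2, 4.65 for Cd163, 2.46 for Mrc1 and 7.19 for Timd4, as ratios of CPM. It was 1.55 for Csf1r, 1.67 for Adgre1 and 1.65 for Cd68. For Ccr2 it was 0.944 and for Aif1 0.864, so these 2 were slightly lower in replicate 1. The median absolute log2 difference between the vector libraries was 1.97 over the 5 resident members and 0.67 over the 4 general members, beside 0.35 over all 12734 genes tested. In the oridonin group the same medians were 0.24 and 0.17, beside 0.23 over all genes, and Timd4 alone differed by more than 1 on the log2 scale, at 1.18. Tet2 vector replicate 1 is also the library with the atrial transcripts: the 6 atrial markers listed summed to 1090 CPM in it, against 91.7 CPM in replicate 2. The 6 fat cell markers listed summed to 21.4 CPM in it, against 0.522 CPM in replicate 2. Their part in the level of the resident markers was not tested.

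**Figure D2:**
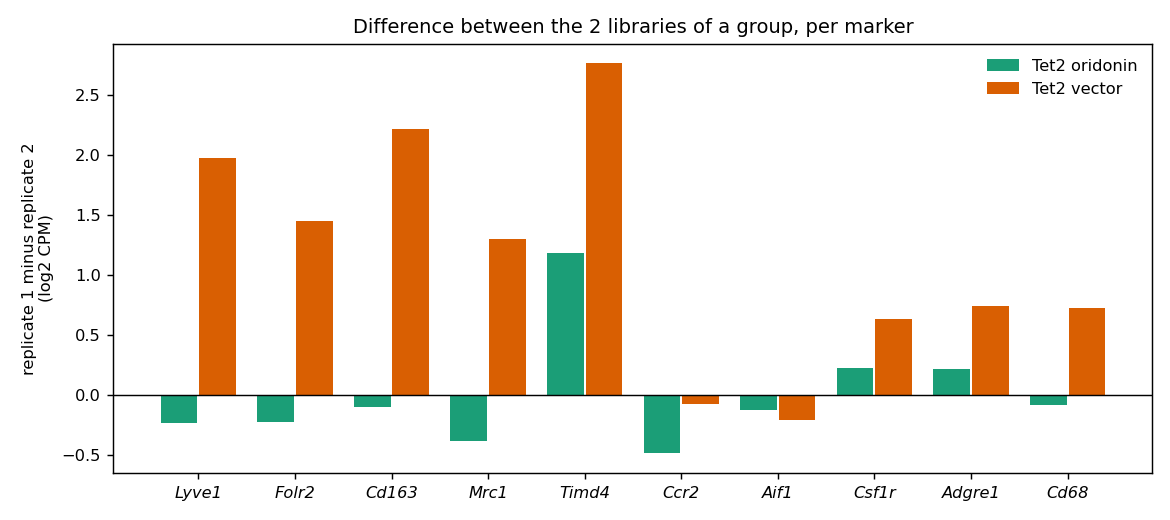
Difference in log2 CPM between replicate 1 and replicate 2 (y axis) for each marker, in Tet2 oridonin hearts and Tet2 vector hearts. The 5 resident markers differ by 1.30 to 2.76 between the vector libraries, while Ccr2 and Aif1 differ by -0.08 and -0.21.

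The first comparison set Tet2 vector hearts against the WT heart. By limma, fitted over 12734 genes with Benjamini-Hochberg adjustment, 0 of the 10 members and 0% of all genes passed a false discovery rate of 0.05, and with voom weights 0 did. At an unadjusted p under 0.05, 3 members were higher (Aif1, Cd68 and Ccr2) and 0 lower, where 5.06% of all genes were higher and 4.53% lower at that threshold, 9.59% in all. Aif1 had a log2 fold change of 2.26 (SE 0.47, limma, adjusted p = 0.334) and was higher in both vector libraries. Ccr2 had a log2 fold change of 1.49 (SE 0.39, limma, adjusted p = 0.417), and Cd68 one of 1.15 (SE 0.37, limma, adjusted p = 0.463). These differences rest on 2 libraries against 1, whose spread is taken to be that of the other groups.

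The other members were not distinguishable from the WT level. Timd4 had a log2 fold change of 2.09, with a 95% interval of -0.94 to 5.11. That of Lyve1 was 0.24 (interval -1.57 to 2.04), that of Mrc1 0.58 (-0.71 to 1.86), that of Folr2 0.62 (-1.01 to 2.25) and that of Cd163 -1.31 (-3.31 to 0.68). Csf1r, at -0.03, had the narrowest interval of the 10, -0.81 to 0.74, and Adgre1 was at 0.53 (-0.38 to 1.44). Both vector libraries lay above the WT library in 5 members (Timd4, Ccr2, Aif1, Adgre1 and Cd68), as in 35.4% of all genes, and below it in 1, Cd163, as in 32.3%. The log2 fold change was above 0 in 8 of 10 members and in 50.4% of all genes, and its median was 0.60 over the members and 0.00 over all genes. Without Tet2 vector replicate 1, 5 members stood above 0 and the median was 0.04, beside -0.05 over all genes. Aif1 was then at 2.36, Ccr2 at 1.53, Cd68 at 0.79, Lyve1 at -0.75 and Cd163 at -2.42. Without replicate 2, 9 members stood above 0 and the median was 1.28, beside 0.07 over all genes. Either fit sets 1 vector library against 1 WT library and takes its spread from the oridonin libraries alone. No count of members by p is therefore given for them.

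**Figure D3:**
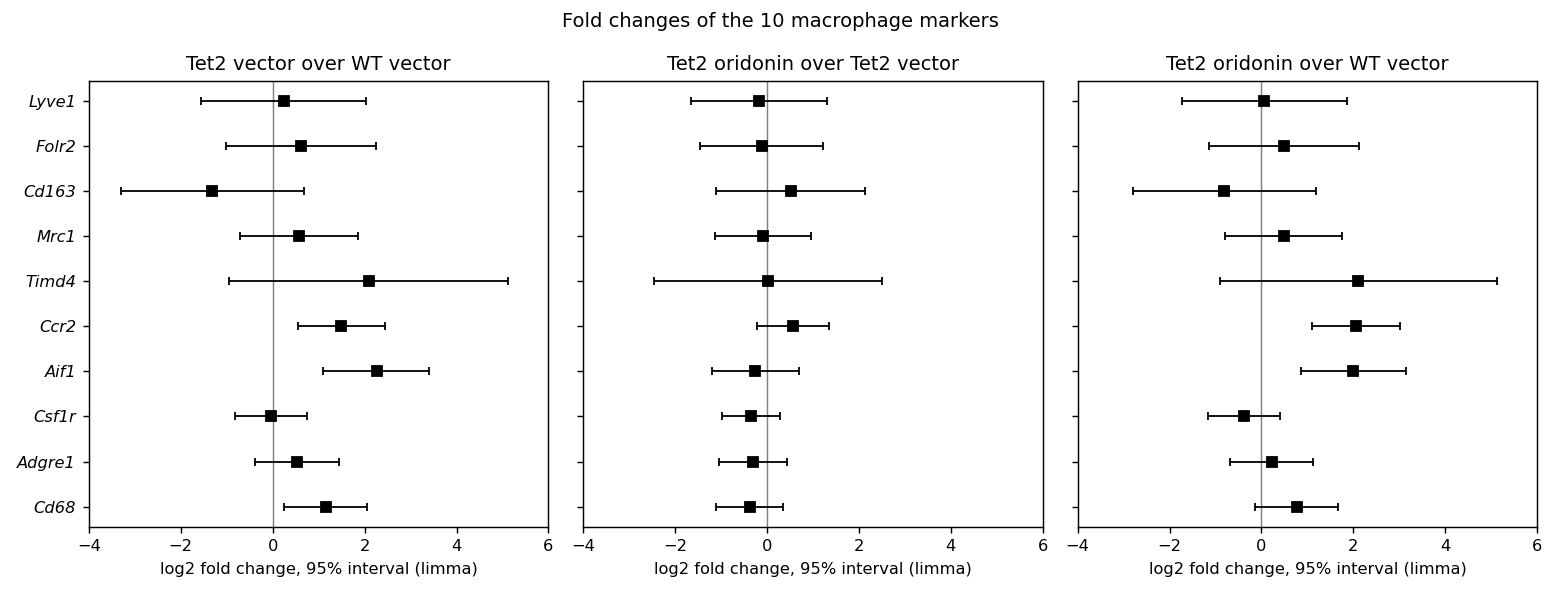
Log2 fold change (x axis, limma, with its 95% interval) of each marker for Tet2 vector over WT vector, Tet2 oridonin over Tet2 vector and Tet2 oridonin over WT vector. Aif1 (2.26 and 2.00) and Ccr2 (1.49 and 2.06) have intervals above 0 in both comparisons with WT, and in the comparison of oridonin with vector every interval spans 0.

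The second comparison asked what oridonin did in the Tet2 hearts. Again 0 of 10 members and 0% of all genes passed in limma. At an unadjusted p under 0.05 there were 0 members in either direction, where 0.668% of all genes were higher and 1.93% lower, 2.6% in all. Ccr2 came closest to a difference upwards, with a log2 fold change of 0.57 (SE 0.32, limma, adjusted p = 1). It was the member with both oridonin libraries above both vector libraries, as were 8.37% of all genes. Aif1 was the member with both below, as were 17.8% of all genes, with a log2 fold change of -0.26 (interval -1.20 to 0.69). Cd68 was at -0.38 (-1.12 to 0.35), Csf1r at -0.34 (-0.98 to 0.29) and Adgre1 at -0.31 (-1.05 to 0.43). Among the resident markers, Lyve1 was at -0.17 (-1.65 to 1.30), Mrc1 at -0.09 (-1.14 to 0.95), Folr2 at -0.12 (-1.45 to 1.21), Timd4 at 0.02 (-2.45 to 2.49) and Cd163 at 0.51 (-1.12 to 2.14). The intervals of the resident markers leave room for changes of 2-fold or more in either direction for all but the upper end of Mrc1. The median over the members was -0.15, beside -0.05 over all genes, with 3 of 10 above 0, beside 40.2% of all genes. That median turned to 0.54 without Tet2 vector replicate 1 and was -0.71 without replicate 2, so its direction rested on which vector library was kept. The median over all genes was 0.01 without replicate 1 and -0.14 without replicate 2. Of the 10 members, 7 stood above 0 without replicate 1 and 1 without replicate 2. Each of these fits keeps 1 vector library and takes its spread from the oridonin libraries alone, so no count of members by p is given.

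The third comparison set oridonin-treated Tet2 hearts against the WT heart. It shares the WT library with the first comparison and the oridonin libraries with the second. In limma 0 of 10 members and 0% of all genes passed. At an unadjusted p under 0.05, 2 members were higher, Ccr2 and Aif1, beside 2.69% of all genes, and 0 were lower, beside 3.53%; in either direction it was 6.21% of all genes. The log2 fold change of Ccr2 was 2.06 (SE 0.39, limma, adjusted p = 0.561). That of Aif1 was 2.00 (SE 0.47, limma, adjusted p = 0.651). Both oridonin libraries lay above the WT library in 7 members, all but Lyve1, Cd163 and Csf1r, and in 31.9% of all genes. Both lay below it in 2, Cd163 and Csf1r, and in 41.7% of all genes. The log2 fold changes of Cd163 (-0.81, interval -2.80 to 1.19), Csf1r (-0.38, -1.16 to 0.40) and Lyve1 (0.06, -1.74 to 1.87) all had intervals that span 0. The log2 fold change was above 0 in 8 of 10 members, beside 43.8% of all genes, and its median was 0.49, beside -0.06. Without Tet2 vector replicate 1, which enters here only through the shared estimate of spread, that median was again 0.49. The same median was found without Tet2 vector replicate 2. In both fits the spread comes from the oridonin libraries alone, so no count of members by p is given.

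Ratios between markers in the same library do not depend on how the library total was scaled. They are ratios of CPM, not corrected for gene length, and are read only across libraries. Ccr2 was 14.1% and 23.1% of Csf1r in Tet2 oridonin, 7.50% and 12.3% in Tet2 vector and 3.28% in WT vector. Set against the sum of the 5 resident markers, Ccr2 was 8.04% and 9.44% in Tet2 oridonin, 3.17% and 10.6% in Tet2 vector and 2.11% in WT vector. On the first scale the 3 groups did not overlap, as they did not for Ccr2 itself. The share of genes with this order over Csf1r was not computed. On the second scale Tet2 vector replicate 2 was the highest and replicate 1 lay next to the WT library. Aif1 was 6.0% and 7.64% of Csf1r in Tet2 oridonin, 4.77% and 8.54% in Tet2 vector and 1.25% in WT vector. Cd68 was 27.0% and 33.5%, 31.8% and 29.9%, and 13.6% of Csf1r in the same order of groups. Cd163 was 46.3% and 37.8% of Mrc1 in Tet2 oridonin, 37.9% and 20.1% in Tet2 vector and 102% in WT vector, where the WT library stood apart from the 4 others. Lyve1 was 54.5% and 49.2% of Mrc1 in Tet2 oridonin, 69.2% and 43.3% in Tet2 vector and 69.3% in WT vector, where it did not. Folr2 was 6.77% to 7.72% of Mrc1 in all 5 libraries. No test was made of these ratios.

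**Figure D4:**
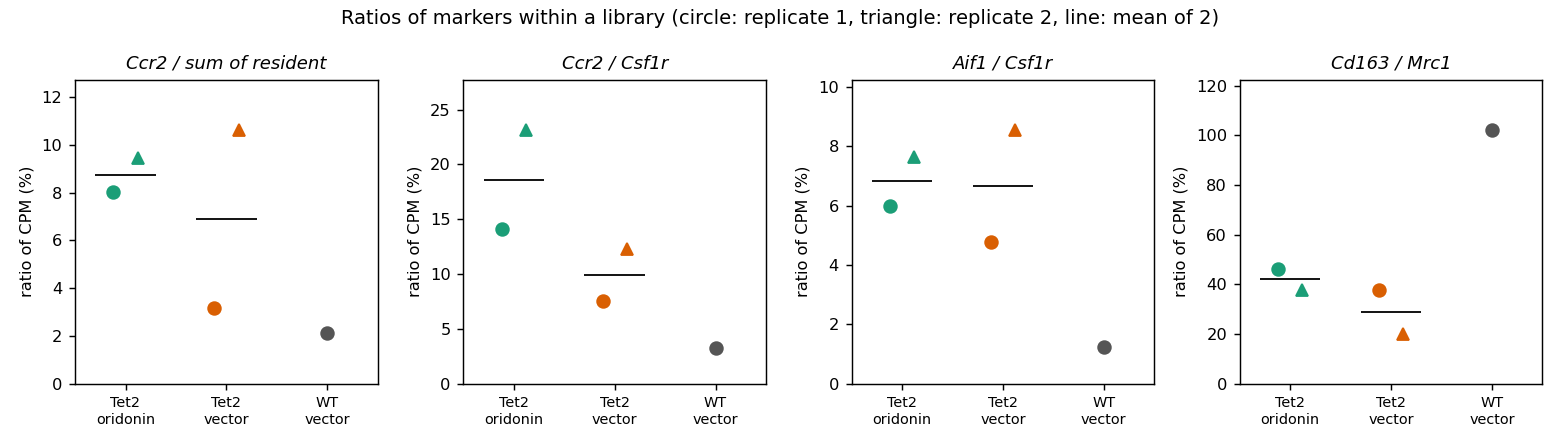
Ratio of the CPM of 2 markers in the same library (y axis, percent, from 0), with a circle for replicate 1, a triangle for replicate 2 and a line at the mean of the 2. Ccr2 over Csf1r is 14.1% and 23.1% in Tet2 oridonin, 7.50% and 12.3% in Tet2 vector and 3.28% in WT vector, and Cd163 over Mrc1 is 102% in WT vector and at most 46.3% elsewhere.

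The 4 chemokine genes listed as ligands of CCR2 were measured beside Ccr2. Which receptor each of them acts through in the mouse, Ccl8 among them, was not tested. Ccl2, the main ligand in monocyte recruitment, was at 1.71 and 3.43 CPM in Tet2 oridonin, 1.42 and 2.54 CPM in Tet2 vector and 0.616 CPM in WT vector. Ccl7 had 48 and 74 counts in Tet2 oridonin, 42 and 8 in Tet2 vector and 0 in WT vector, where 3 counts correspond to 0.200 CPM. Ccl12, a mouse chemokine, was at 2.53 and 3.57 CPM in Tet2 oridonin, 0.837 and 2.15 CPM in Tet2 vector and 0.516 CPM in WT vector. Ccl8 was at 6.43 and 7.27 CPM in Tet2 oridonin, 17.8 and 6.0 CPM in Tet2 vector and 1.65 CPM in WT vector. All 4 were thus lowest in the WT library. In limma all 4 had an unadjusted p under 0.05 for Tet2 oridonin over WT vector, as did 2.69% of all genes in that direction, and 0 passed after adjustment over all genes. For Tet2 vector over WT vector, Ccl7 and Ccl8 were under that p, beside 5.06% of all genes, and Ccl2 and Ccl12 were not. For oridonin over vector, 0 of the 4 reached an unadjusted p under 0.05. Of the ligands of CSF1R, Csf1 was at 47.3 and 56.4 CPM in Tet2 oridonin, 61.1 and 49.4 CPM in Tet2 vector and 37.6 CPM in WT vector, and Il34 at 4.31 and 3.91, 2.57 and 3.59, and 5.31 CPM. Both had an unadjusted p above 0.05 in every comparison.

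Other genes of macrophages were taken as lists. Of 20 other genes known from resident macrophages, 19 were tested. Over all genes, the median log2 fold change was 0.00 for Tet2 vector over WT vector, -0.05 for oridonin over vector and -0.06 for oridonin over WT vector, with 50.4%, 40.2% and 43.8% of genes higher. In this list it was 0.54 for Tet2 vector over WT vector with 15 higher, -0.30 for oridonin over vector with 3 higher, and 0.22 for oridonin over WT vector with 13 higher. At an unadjusted p under 0.05, 5 were higher in Tet2 vector than in WT vector (Cbr2, Pf4, C1qa, C1qb and C1qc) and 0 lower, beside 5.06% and 4.53% of all genes. C1qa, which encodes a chain of the first complement component, was at 57.8 and 53.9 CPM in Tet2 oridonin, 78.2 and 61.2 CPM in Tet2 vector and 40.4 CPM in WT vector. Cbr2, a carbonyl reductase, was at 23.2 and 22.0, 40.1 and 19.9, and 11.9 CPM. Pf4, a chemokine also stored in platelets, was at 13.4 and 11.5, 21.2 and 11.0, and 6.28 CPM, and C1qb, another complement chain, at 53.5 and 45.5, 61.9 and 51.6, and 32.9 CPM. In all 4 genes the WT library was the lowest. They were named for their small p in Tet2 vector over WT vector, which favours such genes. The share of all genes with the WT library lowest was not computed. Relative to the WT library, the median of this list was 0.12 and 0.31 in the oridonin libraries and 0.93 and 0.02 in the vector libraries, so replicate 1 of the vector group stood apart as it did in the resident members (1.22, beside -0.11 in replicate 2).

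Of 22 other genes of monocytes and cells newly derived from them, 14 were tested, with a median log2 fold change of 0.77 for Tet2 vector over WT vector and 12 higher, -0.12 for oridonin over vector with 6 higher, and 0.57 for oridonin over WT vector with 9 higher. At an unadjusted p under 0.05, 4 were higher in Tet2 vector than in WT vector (Ly6c2, Plac8, Fcgr1 and Chil3) and 1 lower (Gpnmb), beside 5.06% and 4.53% of all genes. In oridonin, 3 were lower than in vector (Lyz2, Lgals3 and Trem2), beside 1.93% of all genes. Here the median relative to the WT library was alike in all 4 libraries, at 0.44 and 0.69 in Tet2 oridonin and 0.85 and 0.72 in Tet2 vector. Ly6c2, a surface protein of inflammatory monocytes, had 15 and 16 counts in Tet2 oridonin, 13 and 25 in Tet2 vector and 3 in WT vector, although its reads may be shared with its near-identical neighbour Ly6c1. Plac8, expressed in monocytes, had 13 and 20, 39 and 26, and 7 counts. Chil3, a chitinase-like protein of myeloid cells, had 14 and 11, 16 and 57, and 1 counts, and may likewise share reads with related genes. Lgals3, encoding galectin-3, was at 3.97 and 3.77 CPM in Tet2 oridonin, 7.53 and 6.78 CPM in Tet2 vector and 5.48 CPM in WT vector. For oridonin over vector its log2 fold change was -0.88 with a standard error of 0.27, and 0 genes of the list passed after adjustment over all genes in any comparison.

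Genes shared by macrophages and other leukocytes numbered 16, all tested. Their median log2 fold change was 0.61 for Tet2 vector over WT vector with 14 higher, -0.16 for oridonin over vector with 2 higher, and 0.41 for oridonin over WT vector with 13 higher. Relative to the WT library, the median was 0.36 and 0.44 in the oridonin libraries and 0.90 and 0.31 in the vector libraries. Ptprc, the common leukocyte antigen CD45, was at 6.84 and 10.6 CPM in Tet2 oridonin, 8.95 and 8.41 CPM in Tet2 vector and 3.97 CPM in WT vector. Ms4a7, a membrane protein of macrophages, was at 2.87 and 3.29, 5.86 and 4.50, and 2.13 CPM. Tyrobp, a signalling adaptor of myeloid receptors, was at 6.70 and 8.16, 9.66 and 8.22, and 5.11 CPM. The WT library was the lowest in all 3, which were likewise named for their small p in Tet2 vector over WT vector. For Tet2 vector over WT vector, 4 of the 16 were higher at an unadjusted p under 0.05 in limma, these 3 among them. None was lower, and the shares of all genes were 5.06% higher and 4.53% lower. Genes of MHC class II, which present antigen, followed yet another order. Cd74, its invariant chain, was at 177 and 135 CPM in Tet2 oridonin, 73.0 and 116 CPM in Tet2 vector and 84.3 CPM in WT vector. H2-Aa, a chain of the molecule itself, was at 82.0 and 61.8, 36.8 and 54.5, and 41.0 CPM. Both were higher at an unadjusted p under 0.05 in limma for oridonin over vector, beside 0.668% of all genes. The same held for oridonin over WT vector, beside 2.69% of all genes. The list of 7 had a median log2 fold change of 0.73 for oridonin over vector, with 6 higher, 0.12 for vector over WT and 0.80 for oridonin over WT, and 0 passed after adjustment over all genes.

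**Figure D5:**
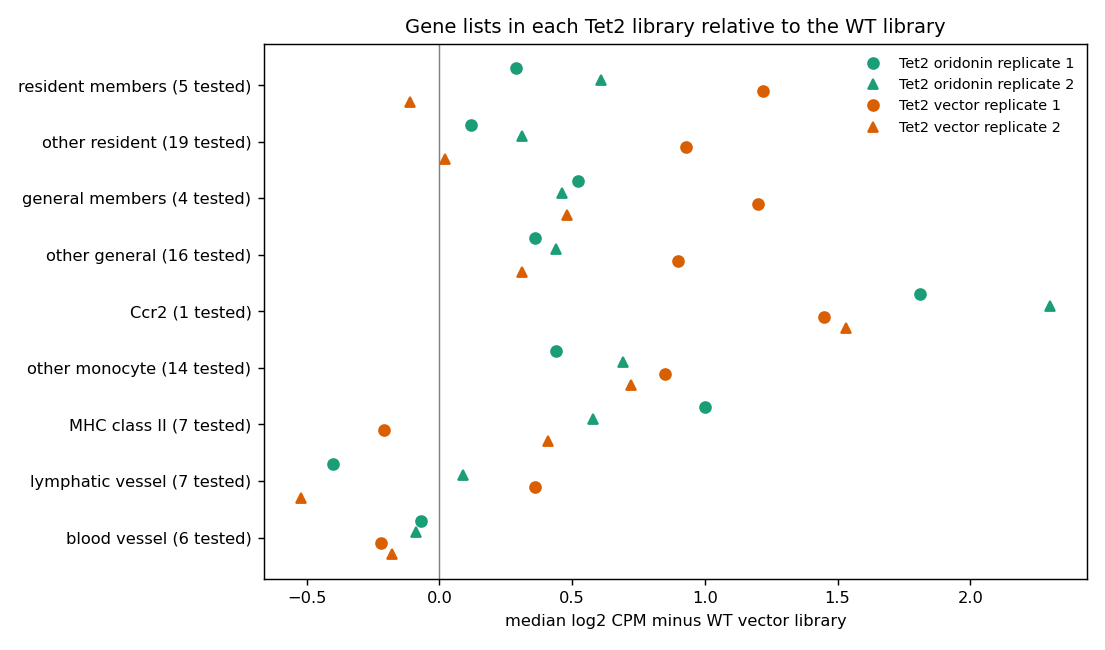
Median over each gene list of log2 CPM minus that of the WT vector library (x axis), for the 2 Tet2 oridonin and the 2 Tet2 vector libraries. The resident members stand at 1.22 and -0.11 in the vector libraries, while Ccr2 is at 1.45 to 2.30 in all 4 Tet2 libraries.

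Markers of other cells were checked beside the members. Lyve1 is also made by lymphatic vessels. Of the other lymphatic markers, Prox1 was at 46.8 and 65.7 CPM in Tet2 oridonin, 79.0 and 47.4 CPM in Tet2 vector and 61.7 CPM in WT vector, Flt4 at 23.2 and 23.5, 21.3 and 17.9, and 25.7 CPM, and Mmrn1 at 3.56 and 9.40, 6.95 and 3.65, and 17.9 CPM. Reln was at 6.77 and 7.20, 7.60 and 3.33, and 13.6 CPM. Pdpn was at 3.49 and 5.01, 6.50 and 4.37, and 4.17 CPM, and Sema3d at 0.205 and 1.92, 4.38 and 1.63, and 1.75 CPM. Prox1, Pdpn and Sema3d were thus highest in Tet2 vector replicate 1, as Lyve1 was, while Flt4, Mmrn1 and Reln were highest in the WT library. Ccl21a, which has near-identical copies that may share its reads, had at most 1 count in any library. The 8 genes listed as lymphatic markers, Lyve1 among them, summed to 101 and 133 CPM in Tet2 oridonin, 168 and 88.9 CPM in Tet2 vector and 143 CPM in WT vector. Prox1 was the highest of them in every library, so these sums follow it most. Which cells of the heart the RNA of Prox1 and the other genes came from was not tested. The part of lymphatic vessels in the level of Lyve1 was not tested either.

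Of the neutrophil markers, S100a9 was at 0.957 and 2.13 CPM in Tet2 oridonin, 3.99 and 5.80 CPM in Tet2 vector and 0.983 CPM in WT vector. In the same order, S100a8 was at 1.03 and 1.24, 1.48 and 2.61, and 0.333 CPM. Csf3r was at 2.12 and 2.61, 1.93 and 3.52, and 1.0 CPM, with no such drop in oridonin. Cxcr2 had 4 and 9, 1 and 6, and 3 counts, and Retnlg 1 and 2, 6 and 6, and 1. The 5 measured summed to 4.44 and 6.72 CPM, 7.85 and 12.7 CPM, and 2.58 CPM. The 5 T cell markers measured summed to at most 2.70 CPM in any library and none was tested. Fibroblast markers summed to 1870 and 1720 CPM in Tet2 oridonin, 2890 and 3000 CPM in Tet2 vector and 2800 CPM in WT vector. The 4 red cell genes measured summed to 387 and 319 CPM in Tet2 oridonin, 247 and 147 CPM in Tet2 vector and 366 CPM in WT vector. Of these, 3 were lower in Tet2 vector than in WT vector at an unadjusted p under 0.05 (4.53% of all genes) and 2 higher in oridonin than in vector (0.668% of all genes), and 0 passed after adjustment. The part of blood and of its other cells in the level of Ccr2, which monocytes and some lymphocytes carry, was not tested.

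Genes with the most similar course to a marker over the 5 libraries were sought among 12440 other tested genes that averaged 1 CPM or more, by the root mean square difference between centred log2 values. The 5 nearest to Ccr2 were Rinl (difference 0.12), Traf1 (0.15), Sez6l2 (0.16), Gm28651 (0.17) and E330017L17Rik (0.22). Rinl was at 2.87 and 3.22 CPM in Tet2 oridonin, 2.00 and 2.15 CPM in Tet2 vector and 0.783 CPM in WT vector. The nearest to the mean of the 5 resident markers was F13a1 (0.08), which encodes a subunit of coagulation factor XIII and is itself on the list of resident macrophage genes. It was at 47.2 and 50.4 CPM in Tet2 oridonin, 107 and 26.1 CPM in Tet2 vector and 36.4 CPM in WT vector. Slc35f1 (0.09), Lgi2 (0.10), Adgrd1 (0.11) and Cadm3 (0.13) followed.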

How the data were processed

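RNA of 5 heart samples was selected with poly-T beads and sequenced, per the labels' protocols. The genome build was mm10, according to the submitters' processing notes, and the sources used here name no aligner, counter or annotation. Per the file header the table has 5 value columns, and 0 were left without a sample. The values the authors deposited are log2 of CPM, with 0.5 added to each count. Each Tet2 column holds 0.75 of its own value and 0.25 of the other replicate's. With this undone, 99.92% to 99.94% of genes gave whole counts (within 0.01), against 9.06% to 10.4% as deposited. The WT column (33.5% whole) was used as deposited. Of its 128 values between 2 and 8 that were not whole, 98.4% were, within 0.0005, a mix of 2 whole counts at weight 0.75, and at most 50% were at other weights tried.

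Limma 3.58.1 in R 4.3.3 (trend, robust) was fitted to all 5 libraries with group as the only term and 2 residual degrees of freedom. It covered 12734 genes reaching 1 CPM in 2 or more libraries, all 10 members included, and was tested on simulated data. The planned design assumed plain log2 CPM. Other values, filters, scalings, priors, weights, blocks and left-out libraries were tried. Members and lists were chosen with earlier results of these data known. Named beside the members were up to 4 genes of each macrophage list with the smallest p (1 of them is not reported here), ligands, lymphatic markers and the 5 most similar genes. Other list genes given by name or value (such as Myl7, S100a9, C1qc, Fcgr1, Gpnmb, Lyz2 and Trem2) were named after their values were seen.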

Additional observations from a re-analysis of the deposited data

How the results depend on the processing

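Of the alternatives run for the members, 1 brought any past the adjusted threshold in limma. The crossed pairing was run for counts of calls only, and Aif1, Folr2 and Timd4 did not pass the filter of 5 CPM. On the deposited values with the mix left in, Aif1 (adjusted p = 0.00756), Ccr2 (0.0118) and Cd68 (0.0171) passed for Tet2 vector over WT vector, and Ccr2 (0.0121) and Aif1 (0.0168) for oridonin over WT vector. The mix shrinks replicate differences by construction. Calls over all genes were then 2312 for vector over WT, 76 for oridonin over vector and 996 for oridonin over WT, against 0 in each. Only the groups compared gave 103 and 1 for the comparisons of vector and of oridonin with WT. A block for replicate number gave 10, 9 and 6 (vector over WT, oridonin over vector, oridonin over WT), with the members' median at 0.75 for oridonin over WT. The numbers share no label of an animal or batch, and the correlation of their deviations across genes was -0.30. The crossed pairing, added after seeing the data, gave 44 calls for oridonin over vector. Leaving out 1 library at a time gave 2 to 107, 0 to 32 and 0 to 24 calls, each highest without oridonin replicate 2. Voom weights gave 0 in each.

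Log2 fold changes changed sign for some members when 1 library was left out. For vector over WT the ranges were -0.75 to 1.22 (Lyve1), -0.07 to 1.22 (Mrc1), -0.11 to 1.34 (Folr2) and -0.35 to 0.28 (Csf1r). For oridonin over vector they were -1.16 to 0.81 (Lyve1), -0.74 to 0.55 (Mrc1), -0.85 to 0.61 (Folr2), -0.60 to 1.61 (Cd163), -1.36 to 1.40 (Timd4), -0.68 to 0.06 (Adgre1) and -0.71 to 0.54 for the members' median. For oridonin over WT, Lyve1 ranged from -0.06 to 0.18. Csf1r for vector over WT was 0.18 with the replicate block and 0.06 with totals without mitochondrial genes, a scaling that moved the median of all genes to 0.10. Timd4 for oridonin over vector was -0.01 with a prior of 2 counts. With a filter of 5 CPM the members' median for oridonin over WT was 0.22, over fewer members. Where no cause is given, the cause was not tested. The design has 1 WT library and 2 residual degrees of freedom, and no limit of detection was computed.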
